A study of Mus musculus with 2 samples.

Results

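A small set of microglia, labelled as activated, was described here, taken from single-cell RNA profiles of the mouse hippocampus at 3 weeks after birth. Microglia are the resident macrophages of the brain. The cells were selected on measured values: at least 3 unique molecular identifiers (UMIs, each one counted RNA molecule) summed over Lgals3, Lpl, Spp1, Gpnmb, Itgax and Fabp5, a sum called the score from here on. Of 18796 microglia, 733 met that rule (score-positive microglia), and the 18063 with fewer than 3 such UMIs were the other microglia of the same libraries. Because the 6 genes chose the cells, differences from the other microglia are descriptions, and no test was made of them.

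The series holds 1 library from mice with fetal growth restriction (FGR), that is, impaired growth before birth, and 1 library from Control mice. Both came from Tmem119-tdTomato+/- animals, which carry a red fluorescent reporter at the microglial gene Tmem119, and in both, cells positive for that marker were sorted by flow cytometry. Neither the labels nor the headers say how many animals were pooled. With 1 library per group, library and group cannot be told apart, no test between groups was possible, and every interval below is a 95% interval that covers counting error only.

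In injured, ageing or myelinating brain, microglia can take on a state in which genes of lipid uptake, lysosomes and secreted factors are raised while genes of the resting (homeostatic) state are lowered. In the first weeks after birth, microglia with a similar set of transcripts gather along developing axon tracts. Lpl encodes lipoprotein lipase, which releases fatty acids from triglycerides, and Fabp5 a carrier of fatty acids inside the cell. Lgals3 (galectin-3) binds galactosides, Spp1 (osteopontin) is a secreted matrix protein, Gpnmb is a lysosomal glycoprotein and Itgax is the integrin CD11c.

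The rule kept 344 of 8298 FGR microglia, which is 4.15% (Clopper-Pearson 3.73 to 4.60%), and 389 of 10498 Control microglia, which is 3.71% (3.35 to 4.08%). The intervals overlapped. Cells had been sorted on Tmem119, whose RNA was lower in the score-positive cells (values below), and the part of the sort in these shares was not tested. Depth enters these shares, since the score-positive cells held a median of 7143.5 UMIs in FGR and 6240 in Control, against 4930 and 4641 in the other microglia of each library. After every cell was thinned to 1500 UMIs, at least 1 UMI of the score was found in 8.35% of FGR and 8.45% of Control microglia, and at least 3 UMIs in 0.699% (0.531 to 0.903%) of FGR and 0.429% (0.313 to 0.573%) of Control microglia. More than 2 times their library's median depth was reached by 22.1% of FGR and 15.4% of Control score-positive cells, against 3.23% and 3.48% of the other microglia. No barcode was score-positive in both libraries, and 2 Control score-positive barcodes also occurred among the other FGR microglia.

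By its label the set would express both Lgals3 and Lpl. Both are genes of the score, so their detection here follows in part from the selection and is no check of the label. Most score-positive cells had an Lpl UMI, and most had no Lgals3 UMI. Lpl (chr8:68880491-68907448 in GRCm38, plus strand) was detected in 85.2% (81.0 to 88.8%) of FGR and 89.2% (85.7 to 92.1%) of Control score-positive microglia. Lgals3 was detected in 27.3% (22.7 to 32.4%) of the FGR and 11.3% (8.34 to 14.9%) of the Control cells. Spp1 followed at 25.6% and 19.8%, Fabp5 at 25.3% and 25.4%, and Itgax at 24.1% and 12.9%. Gpnmb was found in 4 FGR and 5 Control cells. Lpl was the gene of the score with the most UMIs in 233 FGR and 281 Control cells, and it was the only one of the 6 genes detected in 123 and 194 of them. The median score was 4 in both libraries, with a highest score of 107 in FGR and 64 in Control.

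**Figure D1:**
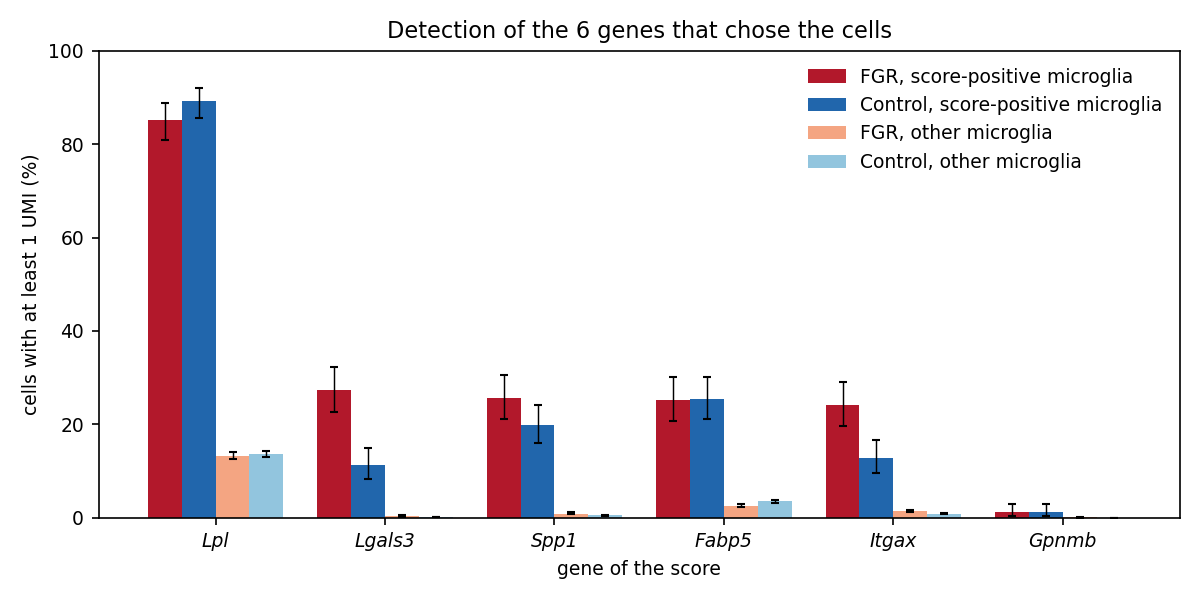
Share of cells with at least 1 UMI (vertical axis, percent) of each of the 6 genes of the score, in FGR and Control score-positive microglia and in FGR and Control other microglia; error bars are 95% Clopper-Pearson intervals. Lpl stands at 85.2% and 89.2% of score-positive cells in FGR and Control, while Lgals3 stands at 27.3% and 11.3%.

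The level of Lpl in score-positive microglia was 496.0 CPM (counts per 1000000 UMIs) in FGR and 496.2 CPM in Control. In the other microglia it was 30.0 and 32.8 CPM, close to the 32.5 and 37.1 CPM of free RNA, measured in barcodes of 10 to 100 UMIs. Lgals3 reached 142.7 CPM in FGR and 60.2 CPM in Control score-positive cells, against 0.741 and 0.278 CPM in the other microglia and 7.64 and 3.78 CPM in free RNA. Barcodes that carried too few microglial UMIs to count as microglia had a score of 3 or more in 7.19% (FGR) and 5.82% (Control) of cases, at median depths of 2062.5 and 2025 UMIs. These numbers describe how the rule works and are not findings about the cells.

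The 7 genes that define microglia in the rule were all present in the score-positive cells. The summed level of 12 microglial markers was 36343 CPM in FGR and 39021 CPM in Control score-positive cells, against 42962 and 43263 CPM in the other microglia. Markers of border macrophages, the macrophages of meninges and vessels, came to 272.7 and 219.9 CPM in score-positive and 277.2 and 216.4 CPM in other microglia (9 genes). Lymphocyte markers were at 0 for all 6 genes in the score-positive cells of both libraries, and neutrophil markers were at 0 for all 5 genes in FGR and for 4 of 5 in Control. Monocyte markers came to 10.5 and 11.1 CPM over 6 genes in the score-positive cells. Astrocyte markers summed to 234.9 and 245.1 CPM, against 319.3 and 201.1 CPM in other microglia (7 genes). Markers of oligodendrocyte precursors came to 2.62 and 33.8 CPM, against 1.84 and 4.45 CPM (5 genes), neuronal markers to 2.25 and 11.5 CPM, against 1.94 and 5.44 CPM (7 genes), and dendritic cell markers to 5.62 and 5.94 CPM, against 4.80 and 7.26 CPM (6 genes). Oligodendrocyte markers summed to 54.7 and 154.9 CPM, against 64.9 and 147.4 CPM (8 genes). Red blood cell markers summed to 6.74 and 17.1 CPM, against 22.2 and 102.7 CPM (4 genes). Endothelial and mural markers summed to 17.2 CPM in FGR and 162.3 CPM in Control score-positive cells, against 33.6 and 26.0 CPM in the other microglia (9 genes). Of the Control score-positive level, Rgs5 gave 56.5 CPM, and 1 cell held 99.3% of its UMIs.

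Beyond the score, summed over the score-positive cells, many transcripts of the disease-associated and axon-tract program, chemokines and glycolysis were higher than in the other microglia. A gene was measured when it reached 50 CPM in at least 1 of the 4 class sums, and called when the interval of its ratio (score-positive over other microglia) lay beyond 1.5-fold the same way in both libraries. Of 3801 genes measured outside the score, 76 were higher (2.0%) and 7 were lower (0.184%). The median of the mean log2 ratios was -0.03, and 89.2% of genes were within 1.5-fold in both libraries. Within single libraries 121 genes in FGR and 95 in Control were higher, and 45 and 10 were lower. A gene low in the other microglia could be measured only by being high in the score-positive cells: of the 76 higher genes, 32 reached 50 CPM in no class of other microglia, and 44 of the 3503 genes that did reach it there were higher.

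**Figure D2:**
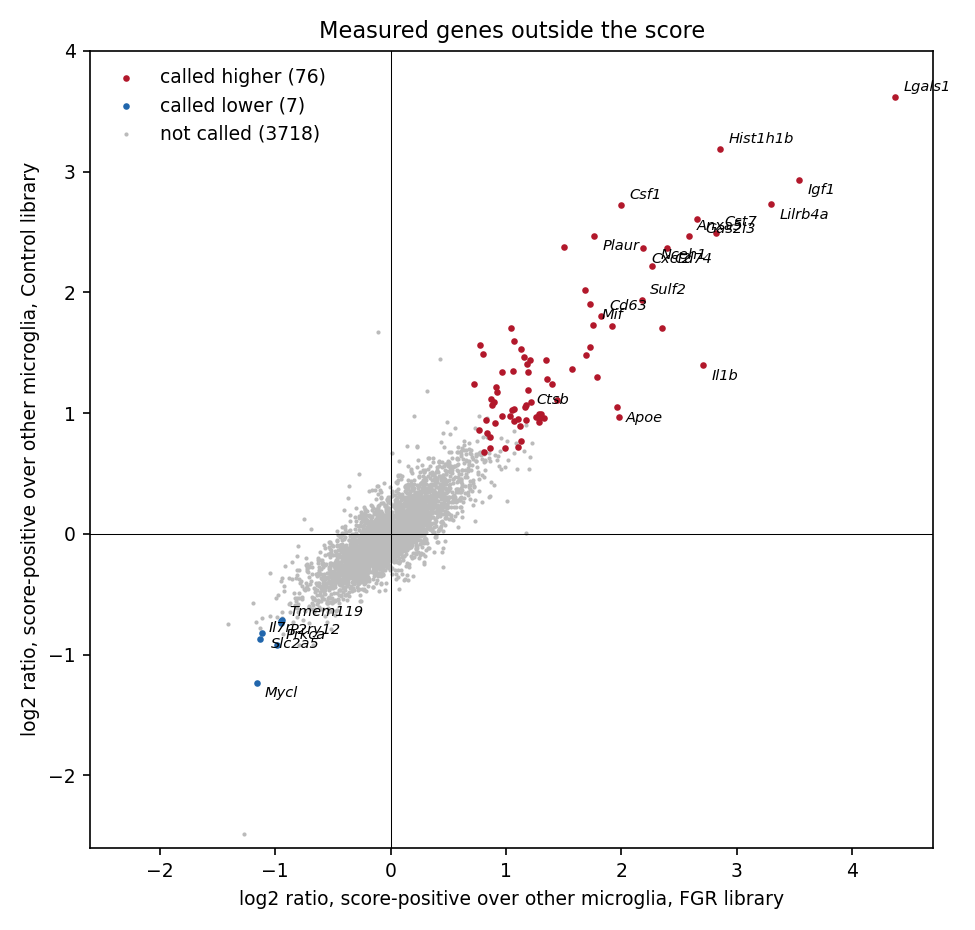
Log2 ratio of score-positive over other microglia in the FGR library (horizontal axis) and in the Control library (vertical axis), 1 point per measured gene outside the score; 4 genes (Col3a1, Col4a1, Ptn, Rgs5) lie outside the axes. The 76 genes called higher sit at the upper right with Lgals1 and Igf1 farthest out, and the 7 called lower, P2ry12 and Tmem119 among them, sit at the lower left.

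Among the called genes the largest mean log2 ratio was that of Lgals1 (chr15:78926725-78930465), which encodes galectin-1, another galactoside-binding lectin. Its level was 72.3 CPM in score-positive and 3.49 CPM in other FGR microglia, a 20.7-fold ratio (16.6 to 25.9), and 31.9 and 2.60 CPM in Control, a 12.3-fold ratio (9.25 to 16.3). It was detected in 64 FGR (18.6%) and 32 Control (8.23%) score-positive cells, and 1 cell held 24.4% of the Control UMIs. Igf1 (chr10:87858265-87937042) encodes insulin-like growth factor 1, a trophic factor for neurons and oligodendrocytes. It stood at 52.1 against 4.47 CPM in FGR, 11.7-fold (9.29 to 14.6), and at 38.6 against 5.06 CPM in Control, 7.63-fold (6.02 to 9.63). Cst7 (chr2:150570415-150578944) encodes cystatin F, an inhibitor of lysosomal cysteine proteases. It stood at 61.8 against 8.77 CPM in FGR, 7.05-fold (5.83 to 8.49), and at 39.0 against 6.93 CPM in Control, 5.63-fold (4.48 to 7.02). A minority of the score-positive cells carried these UMIs, with Igf1 detected in 63 FGR (18.3%) and 47 Control (12.1%) cells and Cst7 in 86 FGR and 68 Control (17.5%) cells. In both libraries the summed levels of all 3 were higher in the score-positive than in the other microglia. None of the 3 reached 50 CPM in other microglia, so each was measured only through the score-positive cells. Genes measured that way can head a ranking by ratio for that reason.

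The start regions of Igf1 and Cst7 are shown because they are the called genes of largest ratio in the RefSeq promoter table (GRCm38.p6), which held 58 of the 76 higher genes. Each runs from 250 bases before to 50 after the transcription start, 5′ to 3′ on the plus strand, and capitals mark a match to any of 4 motifs searched on both strands. The Igf1 region is chr10:87860861-87861160 and the Cst7 region is chr2:150570165-150570464. The Igf1 region lies inside the gene coordinates given above, so it belongs to a start downstream of the first base given there.
Igf1: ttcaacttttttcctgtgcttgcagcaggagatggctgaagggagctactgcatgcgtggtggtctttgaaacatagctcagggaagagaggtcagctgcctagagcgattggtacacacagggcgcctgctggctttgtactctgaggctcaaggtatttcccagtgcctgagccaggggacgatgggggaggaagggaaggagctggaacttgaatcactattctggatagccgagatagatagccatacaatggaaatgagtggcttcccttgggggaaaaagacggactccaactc
Cst7: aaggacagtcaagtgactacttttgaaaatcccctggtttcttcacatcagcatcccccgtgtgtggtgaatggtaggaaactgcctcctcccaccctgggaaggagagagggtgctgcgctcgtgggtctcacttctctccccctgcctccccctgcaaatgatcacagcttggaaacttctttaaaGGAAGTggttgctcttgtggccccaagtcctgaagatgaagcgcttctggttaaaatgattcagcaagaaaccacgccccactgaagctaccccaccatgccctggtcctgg
The match in Cst7 is the Ets core GGAAGT, which starts at base 189 of the region. Ets factors such as PU.1 drive macrophage genes. That core occurred in 34.5% of the 58 promoters, 35.1% of the 3041 promoters of measured genes and 26.5% of all 27025. The AP-1 motif TGACTCA occurred in 12.1%, 4.18% and 5.95%. The E-box CACGTG occurred in 13.8%, 12.8% and 8.09%, and the M-box TCACATG, bound by Mitf and its relatives, in 5.17%, 3.19% and 4.50%. A match is a stretch of letters and shows no binding.

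Among 37 genes listed for the disease-associated and axon-tract program outside the score, 30 were measured and 19 were higher, with a median mean log2 ratio of 1.23 against -0.03 over all measured genes. All 30 had a positive log2 ratio in both libraries. Of the 30, 7 were measured only through the score-positive cells. Among the 23 that reached 50 CPM in other microglia, 12 were higher (median 0.87). Csf1, the growth factor that microglia themselves depend on, stood at 275.3 against 68.9 CPM in FGR, 4.0-fold (3.68 to 4.34), and at 180.1 against 27.3 CPM in Control, 6.60-fold (5.94 to 7.32). Ank, a pyrophosphate transporter, was 3.79-fold (3.36 to 4.26) higher in FGR and 3.29-fold (2.84 to 3.80) in Control. These are the remaining label markers, and both were raised in both libraries. The set was chosen with earlier results of these data known, so this is no separate support for the label. Lilrb4a, an inhibitory receptor with near-identical relatives that could share its reads, was 9.82-fold (7.90 to 12.2) higher in FGR and 6.63-fold (5.11 to 8.52) in Control. Gas2l3, a linker of actin and microtubules, was 6.29-fold (5.15 to 7.64) and 6.10-fold (5.01 to 7.38) higher. Ank, Lilrb4a and Gas2l3 did not reach 50 CPM in other microglia. The tetraspanin Cd63, found on lysosomes, stood at 1499 against 423.9 CPM in FGR and 1185 against 340.1 CPM in Control. With every cell thinned to 1500 UMIs, it was detected in 74.7% of score-positive and 39.0% of other FGR microglia, and in 67.1% and 33.3% in Control. By the smaller of the 2 differences, that was the widest gap among the genes ranked outside the score. Genes left out of that ranking included predicted, ribosomal protein, mitochondrially coded and sex-linked ones.

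Genes of the Trem2 receptor complex moved little. Trem2, the lipid-sensing receptor, stood at 1992 against 1834 CPM in FGR and 1970 against 1678 CPM in Control, and its partner Tyrobp at 2218 against 1850 and 2009 against 1743 CPM. Neither passed the 1.5-fold rule. The receptor kinase Axl stayed below 50 CPM in every class and was not counted among the 3801. Its ratios were 8.34 (6.47 to 10.7) in FGR and 4.45 (2.86 to 6.71) in Control.

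Genes of lipid handling were raised in part. Of 16 measured, 5 were higher and none lower (median mean log2 ratio 0.47). Among the 14 that reached 50 CPM in other microglia, 3 were higher (median 0.26). Apoe, the apolipoprotein that carries lipids between brain cells, stood at 5063 against 1298 CPM in FGR, 3.90-fold (3.83 to 3.98), and at 2878 against 1390 CPM in Control, 2.07-fold (2.02 to 2.12). Nceh1, a hydrolase of cholesterol esters, was 4.80-fold (4.01 to 5.74) higher in FGR and 4.66-fold (3.77 to 5.72) in Control. Plin2, which coats lipid droplets, was 3.31-fold (2.88 to 3.80) and 2.92-fold (2.52 to 3.38) higher, and the lysosomal phospholipase-like gene Pld3 was 2.55-fold and 2.43-fold higher. The fifth was the cholesterol exporter Abcg1. Nceh1 and Plin2 did not reach 50 CPM in other microglia. None of 21 genes of cholesterol synthesis reached the level needed to be measured.

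Of 34 lysosomal genes measured, 5 were higher and none lower, with a median mean log2 ratio of 0.40. Among the 32 that reached 50 CPM in other microglia, 4 were higher (median 0.38). Cathepsin B (Ctsb) stood at 3129 against 1370 CPM in FGR and 3055 against 1336 CPM in Control, ratios of 2.28 and 2.29. Ctsz, Gaa and Cd68 were also called, beside Cd63. Of these lysosomal genes, all but Gaa are also in the disease-associated and axon-tract list, as is Apoe of the lipid list. Lists share genes, here and below, so counts of different lists overlap. Of 32 nuclear-coded genes of oxidative phosphorylation none was called, although 30 had positive log2 ratios in both libraries (median 0.35). Of 13 glycolytic genes measured, 6 were higher (Aldoa, Gapdh, Ldha, Pgk1, Pkm, Tpi1), with a median of 0.71, and 5 of the 12 that reached 50 CPM in other microglia (median 0.69). Pgk1, phosphoglycerate kinase, stood at 131.5 against 44.3 CPM in FGR and 108.8 against 42.2 CPM in Control, and Pkm, pyruvate kinase, at 288.1 against 127.7 and 258.9 against 123.8 CPM. Cytosolic ribosomal protein genes (30 measured, none called) had a median of 0.04.

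Chemokines and cytokines were the other group with many calls: 10 of 15 measured were higher and none lower (median 1.06), and 7 of the 12 that reached 50 CPM in other microglia (median 0.90). Ccl4, a chemokine that draws immune cells, stood at 7505 against 3569 CPM in FGR, 2.10-fold (2.07 to 2.13), and at 4551 against 1503 CPM in Control, 3.03-fold (2.97 to 3.09). Ccl3, its close relative, was 2.23-fold and 2.77-fold higher. Ccl3 and Ccl4 are also in the disease-associated and axon-tract list. Tnf, a pro-inflammatory cytokine, stood at 277.2 against 70.4 CPM in FGR, 3.94-fold (3.63 to 4.27), and at 135.2 against 69.0 CPM in Control, 1.96-fold (1.75 to 2.18). Il1b, encoding interleukin-1β, was 6.53-fold (5.35 to 7.94) higher in FGR and 2.63-fold (1.93 to 3.52) in Control. It came from few cells, 33 in FGR and 10 in Control, and 1 cell held 42.3% of the Control UMIs. Cxcl2, a neutrophil chemoattractant, was found in 42 FGR and 18 Control cells. Il1b and Cxcl2 did not reach 50 CPM in other microglia. The cytokine Mif was spread more widely, in 230 and 232 cells, at 312.1 against 92.4 CPM in FGR and 219.1 against 66.2 CPM in Control.

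**Figure D3:**
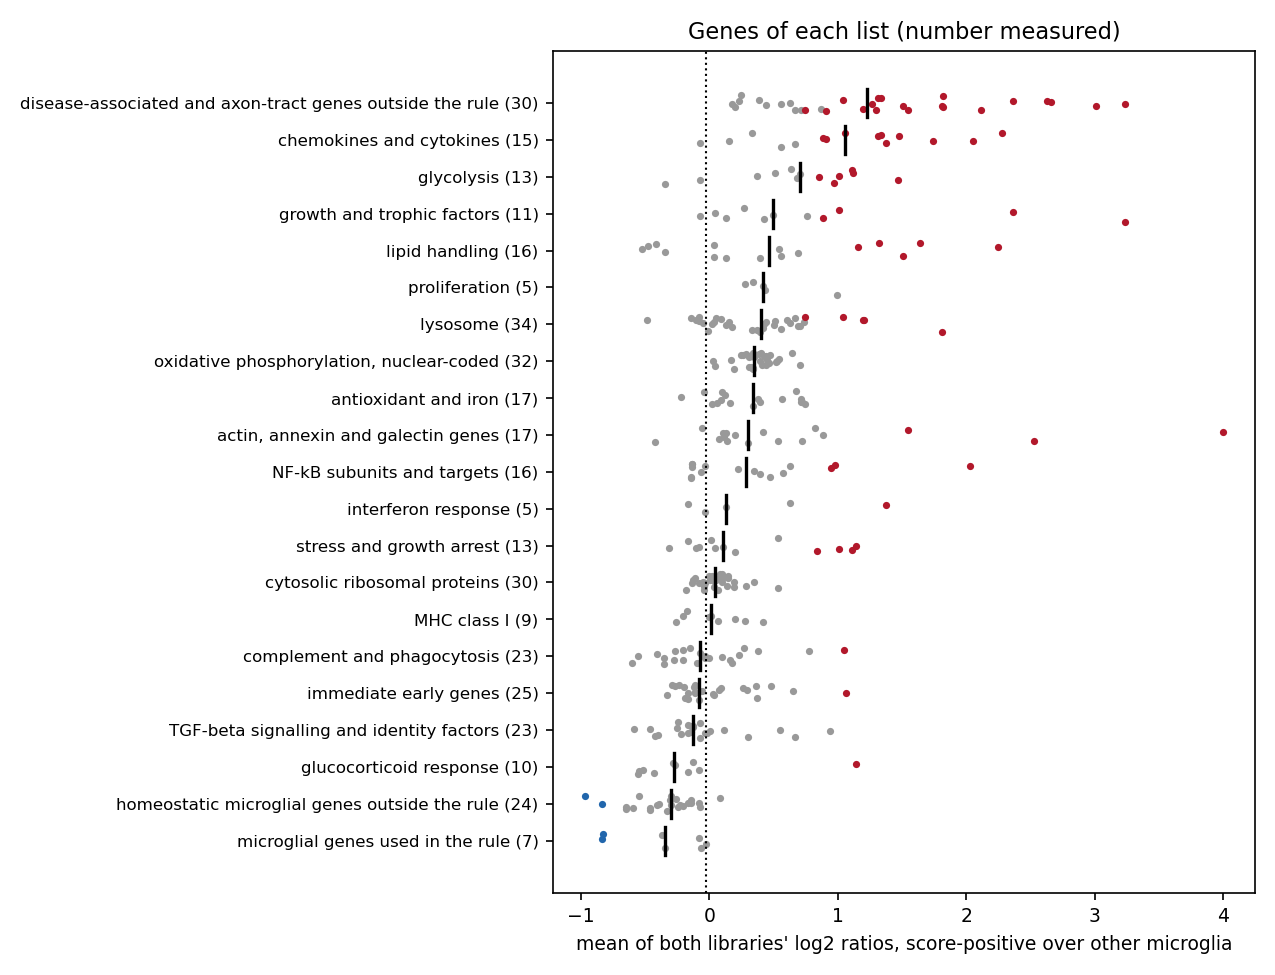
Mean of both libraries' log2 ratios (horizontal axis), score-positive over other microglia, for every measured gene of each list with at least 5 measured; red points were called higher, blue lower and grey not called, the black bar is the list's median, and the dotted line the median of all measured genes (-0.03). The disease-associated and axon-tract list has the highest median (1.23), then chemokines and cytokines (1.06) and glycolysis (0.71). These medians include genes measured only through the score-positive cells. Among genes that reached 50 CPM in other microglia they were 0.87, 0.90 and 0.69, in the same order of lists. Lists share some genes.

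Other lists had few or no calls. Immediate early genes, which respond to stimulation and to tissue dissociation, had 1 of 25 called higher (Maff) and a median of -0.09. Maff did not reach 50 CPM in other microglia. Of 16 NF-kB subunits and targets 3 were higher (Bcl2a1b, Bcl2a1d, Cd83; median 0.28), and reads of the 2 Bcl2a1 genes can be split between near-identical copies. Of 13 stress and growth arrest genes 4 were higher (Cdkn1a, Gadd45b, Gdf15, Hspa5; median 0.10). Growth and trophic factors had 4 of 11 (Csf1, Gdf15, Igf1, Osm; median 0.49), and actin, annexin and galectin genes 3 of 17 (Anxa5, Capg, Lgals1; median 0.30), none of which reached 50 CPM in other microglia. Complement and phagocytosis had 1 of 23 (C3ar1; median -0.07), interferon response 1 of 5 (Cxcl10; median 0.13), MHC class II 1 of 3 (Cd74; median -0.04) and glucocorticoid response 1 of 10 (Cdkn1a; median -0.27). Cd74 did not reach 50 CPM in other microglia either. Among genes that did, 2 of 15 NF-kB genes and 3 of 8 growth and trophic factors were higher. MHC class I (9 measured, median 0.01), antioxidant and iron genes (17, median 0.34), proliferation genes (5, median 0.42) and TGF-beta signalling and identity factors (23, median -0.13) had none in either direction.

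Most homeostatic genes had ratios below 1, and few passed the 1.5-fold rule. Of 24 measured outside the rule, 22 had negative log2 ratios in both libraries, 2 were called lower and none higher (median -0.30). Slc2a5, a fructose transporter typical of microglia, stood at 102.3 against 221.0 CPM in FGR, a ratio of 0.463 (0.409 to 0.522), and at 118.1 against 209.0 CPM in Control, a ratio of 0.565 (0.504 to 0.632). Selplg, a selectin ligand, had ratios of 0.519 and 0.606. Among the 7 microglial genes of the rule, P2ry12, a purine receptor that guides microglial processes, stood at 1467 against 2820 CPM in FGR and 2125 against 3482 CPM in Control. Tmem119, the gene of the reporter, stood at 515.1 against 991.6 and 561.2 against 933.6 CPM. Cx3cr1, the fractalkine receptor, had ratios of 0.721 and 0.829, Csf1r, the receptor of Csf1, 0.746 and 0.831, and the complement gene C1qa 0.932 and 0.963, and none of these 3 was called. The transcription factor Sall1, which maintains microglial identity, had ratios of 0.707 and 0.741. The remaining called genes were Mycl, a Myc family member (0.448 and 0.425), Il7r, the interleukin-7 receptor (0.457 and 0.548), and the protein kinase Prkca (0.506 and 0.528).

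Levels were graded along the score. Apoe was at 1098, 1994 and 2474 CPM in FGR microglia with scores of 0, 1 and 2, and at 2898, 5950 and 8563 CPM with scores of 3 to 4, 5 to 9 and 10 or more. In Control the same steps gave 1282, 1820, 1766, 2200, 3388 and 4740 CPM. P2ry12 ran the other way, at 2919, 2492, 2164, 1903, 1247 and 814.7 CPM in FGR and 3550, 3241, 3127, 2575, 1771 and 939.1 CPM in Control. Cells just inside the rule (a score of 3) and just outside it (a score of 2) differed to a varying degree: P2ry12 was at 1991 against 2164 CPM in FGR and 2599 against 3127 CPM in Control, and Cd63 at 959.3 against 840.7 and 826.7 against 506.5 CPM. Csf1 was at 175.8 against 121.7 CPM in FGR and 67.4 against 37.3 CPM in Control. The median depth also rose with the score, to 8786 UMIs in FGR and 7589.5 in Control at scores of 10 or more, against 4848 and 4563 at 0. Scores of 10 or more were held by 65 FGR microglia (0.783%) and 36 Control microglia (0.343%).

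**Figure D4:**
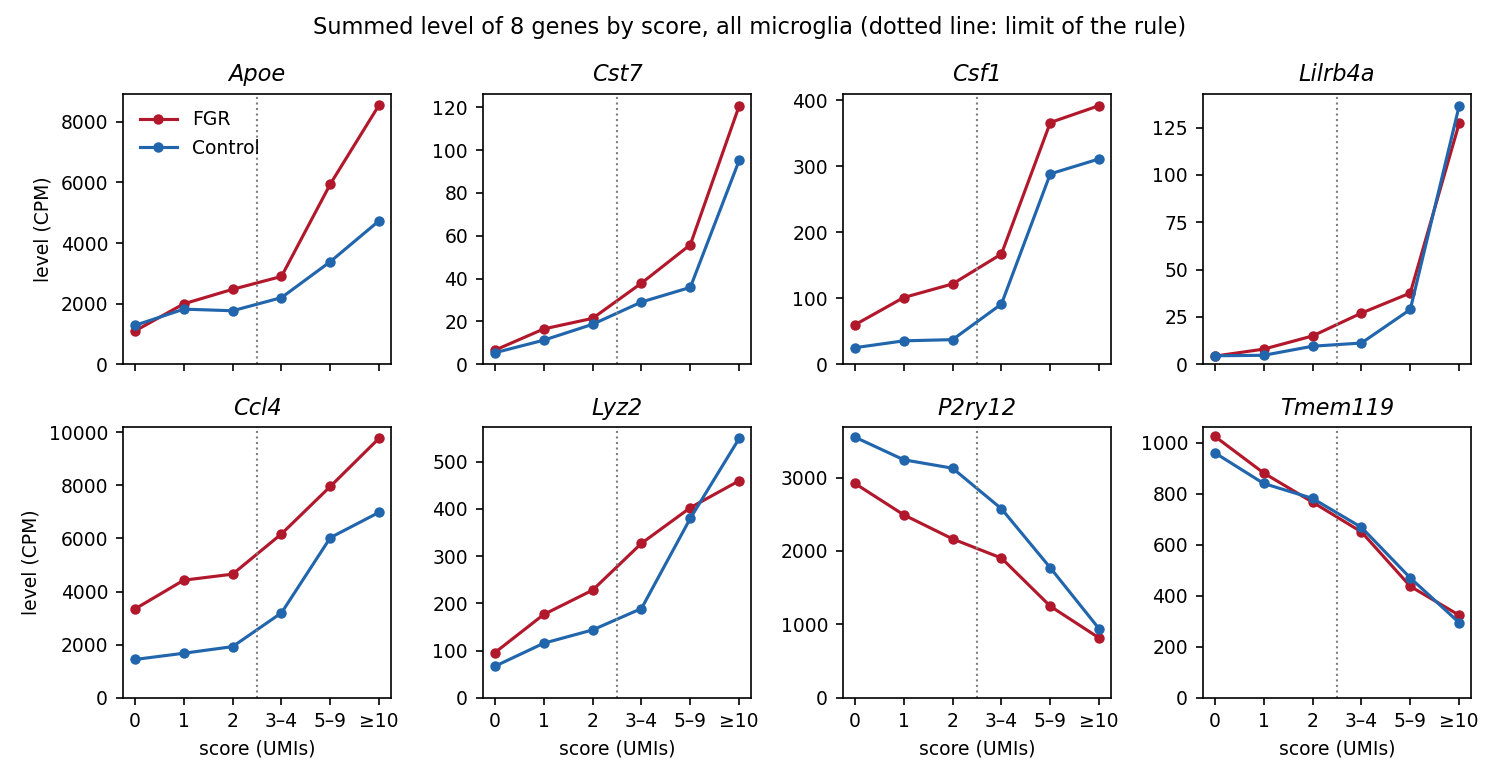
Summed level (vertical axis, CPM) of 8 genes in all microglia grouped by score (horizontal axis, UMIs over the 6 genes), with 1 line each for the FGR and the Control library; the dotted line marks the limit of 3 UMIs. Levels of Apoe, Cst7, Csf1, Lilrb4a, Ccl4 and Lyz2 are higher at high scores, and P2ry12 and Tmem119 are lower, as with P2ry12 at 814.7 CPM in FGR and 939.1 CPM in Control at scores of 10 or more.

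The score-positive cells with an Lgals3 UMI, 94 in FGR and 44 in Control, lay at the far end of this range. P2ry12 was at 759.0 CPM with and 1770 CPM without an Lgals3 UMI in FGR, a ratio of 0.429 (0.393 to 0.468), and at 895.4 and 2314 CPM in Control, a ratio of 0.387 (0.345 to 0.433). Lilrb4a was 7.08-fold (4.79 to 10.7) higher with Lgals3 in FGR and 9.30-fold (5.92 to 14.8) in Control. Lgals1 was 5.44-fold and 5.40-fold higher, and Tnf 2.83-fold and 4.36-fold. Trem2 had ratios of 1.06 in both libraries. Set against the other microglia, the Lgals3-positive cells alone gave 187 higher and 109 lower genes, and the 250 FGR and 345 Control cells without Lgals3 gave 43 and 0. The 50 CPM minimum was applied anew each time, so a gene could be measured through the Lgals3-positive cells alone. These counts are therefore not shares of the same total. Lgals3 is also 1 of the 6 genes of the score, so the split is partly one on the score itself. In the disease-associated and axon-tract list, 24 of 31 measured genes were higher in the cells with Lgals3 and 13 of 25 in those without. In the homeostatic list 8 of 24 were lower with Lgals3 and 0 of 24 without. Cells with Lgals3 were also deeper, at medians of 7715.5 against 6905 UMIs in FGR and 7507.5 against 6062 UMIs in Control.

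Of the score's genes, Lpl alone was detected in some score-positive cells. In FGR these had 1296 CPM of Apoe, against 1298 CPM in the other FGR microglia, and 2057 CPM of P2ry12 against 2820. In Control these had 2123 CPM of Apoe against 1390, and 2696 CPM of P2ry12 against 3482. Cells in which Spp1 or Fabp5 led the score had the most Apoe in FGR, at 9804 CPM (32 cells) and 11946 CPM (22 cells), against 5090 CPM (30 cells) and 3119 CPM (41 cells) in Control. The set was therefore uneven in Apoe.

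Other states crossed with the score. Ccl3 and Ccl4 together made up 1% or more of UMIs in 39.0% (33.8 to 44.3%) of score-positive and 15.3% (14.5 to 16.1%) of other FGR microglia, and in 21.9% (17.8 to 26.3%) and 5.36% (4.93 to 5.82%) in Control. At least 3 UMIs of MHC class II genes and Cd74, which load antigen for T cells, were found in 10.8% of score-positive and 1.06% of other FGR microglia, and in 5.14% and 0.326% in Control. After thinning to 1500 UMIs, at least 1 such UMI was found in 10.5% and 3.92% in FGR and 5.91% and 2.17% in Control. In FGR, 1 cell held 70.4% of the 81 H2-Aa UMIs, and 1 cell held 25.5% of the Cd74 UMIs. Mitotic transcripts (at least 3 UMIs of 10 genes) occurred in 10 FGR and 6 Control score-positive cells, 2.91% and 1.54%, against 0.264% and 0.396% of the other microglia. After thinning to 1500 UMIs, at least 1 such UMI was found in 6.10% of score-positive and 2.43% of other FGR microglia, and in 5.14% and 2.87% in Control. The linker histone Hist1h1b, called higher at 7.24-fold and 9.11-fold, came from 15 FGR and 7 Control cells, and 1 cell held 75.2% of the Control UMIs.

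FGR was compared with Control within the score-positive microglia to see which transcripts differed between the 2 libraries in these cells. Of 3630 genes that reached 50 CPM in score-positive cells of at least 1 library, 72 were higher in FGR (1.98%) and 26 were lower (0.716%), with a median log2 ratio of -0.06. A gene low in 1 library could be measured only by being high in the other, and the calls were not split by this. That limit holds for the ratios and list counts below as well. Most of the called differences were not particular to the score-positive cells: 62 of the 72 also had ratios above 1.5 in the other microglia, and 20 of the 26 had ratios below 1/1.5 there. Among the genes higher in FGR the largest ratio was that of Hspb1, a small heat shock protein, at 92.2 CPM in FGR and 16.3 CPM in Control, 5.64-fold (4.08 to 7.96), against 6.53-fold in the other microglia. Cxcl10, an interferon-induced chemokine, followed at 309.4 and 62.4 CPM, 4.96-fold (4.20 to 5.89), against 7.83-fold in the other microglia, and 1 cell held 30.4% of its Control UMIs. The immediate early phosphatase Dusp1 stood at 2497 and 571.6 CPM, 4.37-fold (4.13 to 4.62), against 4.75-fold.

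By list, 7 of 10 glucocorticoid response genes measured were higher in FGR score-positive cells (median log2 ratio 0.96), as were 7 of 25 immediate early genes (0.51), 6 of 15 chemokines and cytokines (0.53) and 5 of 15 NF-kB genes (0.46). The glucocorticoid-induced Tsc22d3 was 3.05-fold higher in FGR score-positive cells and 2.98-fold higher in the other FGR microglia. Of the 30 disease-associated and axon-tract genes 5 were higher and none lower (median 0.34). None of 34 lysosomal, 13 glycolytic or 32 oxidative phosphorylation genes was called. Of 24 homeostatic genes 1 was lower, the lens crystallin gene Crybb1, at 229.3 CPM in FGR and 439.8 CPM in Control, a ratio of 0.521 (0.472 to 0.575), against 0.775 in the other microglia.

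In 35 of the 3630 genes (0.964%), those with 0 UMIs aside, the FGR-to-Control ratio in the score-positive cells differed from that in the other microglia by more than 1.5-fold, and the difference could not be tested. Apoe was 1.76-fold (1.71 to 1.81) higher in FGR score-positive cells, with 5063 CPM against 2878 CPM in Control, and had a ratio of 0.934 in the other microglia (1298 and 1390 CPM). Tnf was 2.05-fold (1.81 to 2.33) higher in FGR score-positive cells, with 277.2 and 135.2 CPM, and 1.02-fold in the other microglia. Il1b was 2.85-fold (2.07 to 3.99) against 1.15-fold, with the few cells given above. Lgals1 was 2.26-fold (1.75 to 2.95) against 1.34-fold, with 24.4% of its Control UMIs in 1 cell. Csf1 ran the other way, at 1.53-fold (1.36 to 1.72) in the score-positive and 2.52-fold in the other microglia. The FGR set also held more cells with Lgals3 and with scores of 10 or more. Whether that mix accounts for these ratios was not tested. At scores of 3 to 4, Apoe was at 2898 CPM in FGR and 2200 CPM in Control, and Tnf at 175.4 and 87.9 CPM. Apoe was lower in FGR in the cells with Lpl as the only score gene detected (123 in FGR, 194 in Control). There it was at 1296 CPM in FGR and 2123 CPM in Control, and Tnf was at 105.3 and 73.3 CPM.

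The lowest ratios came from very few cells. Col3a1, a fibrillar collagen, had 0 UMIs in FGR score-positive cells, which allows up to 1.12 CPM, and 55.7 CPM in Control, at least 49.6-fold lower in FGR (a floor of 3 counts over the group). Its Control UMIs came from 2 cells, 64.7% of them from 1. Rgs5, a pericyte gene, had 1 UMI in FGR and 56.5 CPM in Control, where 1 cell held 99.3% of it, and Col4a1, of basement membranes, had 3 UMIs in FGR and 66.1 CPM in Control, where 1 of 2 cells held 66.9%. Of Slc1a2, the astrocyte glutamate transporter, 58.4% of the Control UMIs came from 1 cell. These are genes of vessels and astrocytes, and the summed endothelial and mural markers of the same cells are given above. Genes lower in FGR that were spread over more cells were Hes1, a Notch target, at 39.7 CPM in FGR and 175.3 CPM in Control (60 and 146 cells), a ratio of 0.227 (0.182 to 0.280), and Mid1, a ubiquitin ligase, with a ratio of 0.284 (0.195 to 0.406). The other microglia had ratios of 0.271 and 0.225 for these. The myelin gene Mbp had a ratio of 0.408 in the score-positive and 0.353 in the other microglia.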

How the data were processed

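Cells sorted on Tmem119 went into droplet-based 3′ libraries of 10x Genomics, per the labels' protocols. What the authors deposited are UMI counts for every gene and barcode, without normalisation or a filter on cells. The matrix headers name Cell Ranger 4, whereas Cell Ranger 3.0, Seurat 5.0 and the build mm10 come from the submitters' processing notes. No label or header says if strand was used in counting. The libraries held 50833332 (FGR) and 58988805 (Control) UMIs over 32285 gene IDs, of which 32235 were found in GENCODE M21 (GRCm38), the source of gene coordinates. Counts of IDs that share a symbol were summed.

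Cells had at least 1500 UMIs and 200 genes, at most 10% mitochondrially coded UMIs, and, to count as microglia, at least 50 UMIs over C1qa, C1qb, C1qc, Csf1r, P2ry12, Cx3cr1 and Tmem119. No doublet caller was run, so doublets remain. Counts were summed per library and class and scaled to CPM. Ratios have exact conditional intervals, levels exact Poisson intervals and shares Clopper-Pearson intervals, all at 95% and for counting error only. A list's median and a gene's mean log2 ratio set sums below 3 counts to 3. Thinning drew 1500 UMIs per cell without replacement. Promoter sequences are from RefSeq.

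The members and the 23 gene lists were chosen with earlier results of these data known. Named genes were the 6 of the score, the 14 called genes with the largest and smallest mean log2 ratio, the 10 with the largest and smallest FGR to Control ratio, the 10 with the widest gap in thinned detection, up to 4 of each list, and a set of microglial genes given in every case. Abcg1, Cd68, Gapdh, Ldha and Lyz2 were named after their values were seen. A few genes are not reported here. The calculation was tested on simulated data. Python 3.11.15, numpy 2.4.6, scipy 1.17.1 and pandas 2.3.3 were used. Alternatives changed the score, cell filters, depth, free RNA, the level minimum and the fold.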

Additional observations from a re-analysis of the deposited data

Results flagged for a closer look

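Ptn, a secreted growth factor of glia and vessels, was the 1 named gene whose ratio of score-positive over other microglia lay below 1 in one library and above 1 in the other, intervals included. Its ratio was 0.109 in FGR (1 cell with a UMI) and 21.5 in Control (18 cells, 68.9% of the UMIs in 1 of them), both as counted. With the single FGR UMI set to the floor of 3 counts, the log2 ratios differed by -6.04 (FGR minus Control). The difference between the libraries was not tested.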

How the results depend on the processing

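The share of score-positive microglia follows the rule. It was 8.03% in FGR and 7.36% in Control with a score of at least 2, 1.99% and 1.46% with at least 5, 3.11% and 2.67% over Lgals3 and Lpl alone, and 8.35% and 8.45% after thinning to 1500 UMIs with a score of at least 1. It was 3.36% and 3.26% without cells above 2 times the median UMIs. In Control it was also 3.16% without Fabp5 in the score and 3.34% without cells with 3 UMIs of other cell types. The 76 higher and 7 lower genes became 45 and 1 with a score of at least 2, 115 and 36 with at least 5, 27 and 1 after thinning, 32 and 0 beyond 2-fold, 187 and 109 in cells with an Lgals3 UMI, and 43 and 0 in cells without. At 100 CPM 50 were higher, and among genes of 50 CPM in the other microglia 44. All 45 and all 27 were among the 76. With the other microglia weighted to the same depth, 65 of the 76 remained among 68. The 72 higher and 26 lower genes in FGR became 24 and 11 beyond 2-fold, and the lower ones 52 at 20 CPM and 15 at 100 CPM. No called named gene changed direction under any alternative that gave a value: of 980 ratios of score-positive over other microglia for 49 genes, 679 stayed within the counting interval of the main value, and of 355 FGR to Control ratios for 23 genes, 309 did. The settings for scores of 20 or more, 10 UMIs of other cell types, Lgals3 and 50 CPM in the other microglia were chosen after seeing the data. No paired analysis was possible because each group has 1 library. Intervals cover counting error only, so variation between animals or preparations is not in them, and a ratio that rests on few cells can be that of 1 cell.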
